A study of Mus musculus with 6 samples.

Results

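The miR-34 and miR-449 miRNAs were followed in lungs of bleomycin (BLM) treated and untreated mice. The 7 members were taken by name: mmu-miR-34a-5p, mmu-miR-34b-5p, mmu-miR-34b-3p, mmu-miR-34c-5p, mmu-miR-34c-3p, mmu-miR-449a-5p and mmu-miR-449c-5p. All 7 had a probe among the 1963 miRNA probes of the array, and 6 of the 7 were bright enough to be tested, out of 275 probes tested in all. The probe for mmu-miR-449c-5p was not detected on any array.

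miR-34a is a direct transcriptional target of p53, the factor that answers DNA damage, and it represses genes of cell cycle entry and survival such as Cdk6 and Bcl2. miR-34b and miR-34c are made from 1 shared transcript, which p53 can also induce, and are abundant in multiciliated cells of the airway. The miR-449 miRNAs lie in the gene Cdc20b and rise when progenitor cells of the airway become multiciliated, where both groups repress inhibitors of cilium formation such as Ccp110. BLM breaks DNA, and miR-34a, called here the p53-responsive member, is therefore set beside the members of ciliated cells. Since p53 can induce miR-34b and miR-34c too, this comparison is no measure of p53 activity.

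Total RNA of whole lung came from 3 untreated WT mice given saline and from 3 WT-BLM mice given BLM at 1.5 U/kg body weight into the trachea, and all were killed at day 21. All 6 were young adult wild-type mice of the strain C57Bl6, and each lung was hybridized to 1 array with the dye Cy3. The labels give neither slide nor scan, so that no batch could be tested. In whole lung, fewer cells of a type and less RNA per cell cannot be told apart.

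The array of untreated WT mouse 3 was dim and noisy. There the tested probes had a median intensity of 129 above the empty spots, compared with 224 to 282 on the other 5 arrays. A probe had to exceed the empty spots by 178 to count as detected there, against 24.0 to 136 elsewhere. The array of WT-BLM mouse 1 was noisy too, as the limit of 136 was its own, against 24.0 to 54.4 on the remaining arrays. On it 176 probes were detected, against 132 in untreated WT mouse 3 and 270 to 365 on the rest. Untreated WT mouse 2 stood apart in the miRNAs of striated muscle. Its log2 intensity of miR-206-3p was 10.32, against 6.12 to 6.44 in the other 5 mice, and the part of muscle RNA in the results below was not tested.

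The family is shown by its sequences, since the shared seed (bases 2 to 8, in capitals) defines it and the rest of each sequence sets how well the probes can tell the members apart. The RNA that each 5p probe was made for reads, 5′ to 3′,
miR-34a-5p: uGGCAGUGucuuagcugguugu
miR-34b-5p: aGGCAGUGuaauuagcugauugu
miR-34c-5p: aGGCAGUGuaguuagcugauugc
miR-449a-5p: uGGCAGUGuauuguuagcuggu
miR-449c-5p: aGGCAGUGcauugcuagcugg
The seed GGCAGUG stood at these bases in 6 of the 1963 probe targets (0.306%). These were the 5 shown and miR-449b. The 3p arms have another seed, AUCACUA, which was found at bases 2 to 8 in 2 of the 1963 targets (0.102%), namely
miR-34b-3p: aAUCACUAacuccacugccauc
miR-34c-3p: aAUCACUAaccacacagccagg

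With positions counted from 1 at the 5′ end and the miR-34b base written first, the 5p arms of miR-34b and miR-34c differ by A11G and U23C only. Their 3p arms differ at 5 of 22 bases: U11C, C12A, U16A, U21G and C22G. miR-34a-5p and miR-34b-5p, laid side by side without gaps, share 11 of 22 bases, and miR-34a-5p and miR-449a-5p share 15 of 22. Cross-binding between such probes was not tested, and it would concern miR-34b-5p and miR-34c-5p most directly.

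The array targets were the same as the RefSeq mature sequences of GRCm38.p6 for each of the 6 members that the RefSeq table lists. There miR-34a-5p lies at chr4:150068473-150068494 on the plus strand, outside the span of any other gene. miR-34b-5p lies at chr9:51103610-51103632 on the minus strand and miR-34b-3p at chr9:51103574-51103595, with miR-34c-3p close by at chr9:51103044-51103065. Both of their genes fall within the spans of Hoatz and Btg4. miR-449a-5p lies at chr13:113037549-113037570 and miR-449c-5p at chr13:113036008-113036028, both on the plus strand within the span of Cdc20b.

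miR-34a-5p, the p53-responsive member, was higher in every WT-BLM lung than in every untreated WT lung. On the log2 scale, after normalization between arrays, untreated WT mice 1, 2 and 3 stood at 8.24, 7.97 and 7.92. WT-BLM mice 1, 2 and 3 stood at 8.85, 8.39 and 8.60. The groups came closest between untreated WT mouse 1 and WT-BLM mouse 2. The group means were 8.04 ± 0.17 (SD, n = 3) and 8.61 ± 0.23, a log2 fold change of 0.57 (standard error 0.23, 95% interval 0.035 to 1.11), or 1.48-fold.

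This difference did not pass the test over all miRNAs. In limma, the unadjusted p of miR-34a-5p was 0.0397, the fifth smallest of 275, and the Benjamini-Hochberg adjusted p was 1. No miRNA had an adjusted p under 0.05 (0% of 275), and 5 of 275 (1.82%) had an unadjusted p under 0.05. Groups of 3 cannot give a two-sided exact permutation p under 0.10, which is the value that miR-34a-5p reached. The study listed miR-34a-5p from these same mice, so that its direction here is not independent evidence.

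The spots behind miR-34a-5p agreed on most arrays. Above the empty spots its 2 spots read 248 and 249 in untreated WT mouse 1, 209 and 231 in mouse 2, and 62.8 and 183.4 in mouse 3, where the probe was not detected. In the WT-BLM mice they read 461 and 319, 374.7 and 325, and 293 and 283. Thus the lowest WT-BLM spot stood above the highest untreated WT spot before any normalization. Without untreated WT mouse 3 the log2 fold change was 0.52, without untreated WT mouse 2 it was 0.51 and without WT-BLM mouse 1 it was 0.46, each with an unadjusted p above 0.05 in limma.

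In the authors' own normalized intensities, which are on a linear scale, miR-34a-5p stood at 198, 157 and 168 without BLM and at 372, 229 and 264 with it. These groups did not overlap either, and the ratio of their means was 1.65.

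**Figure D1:**
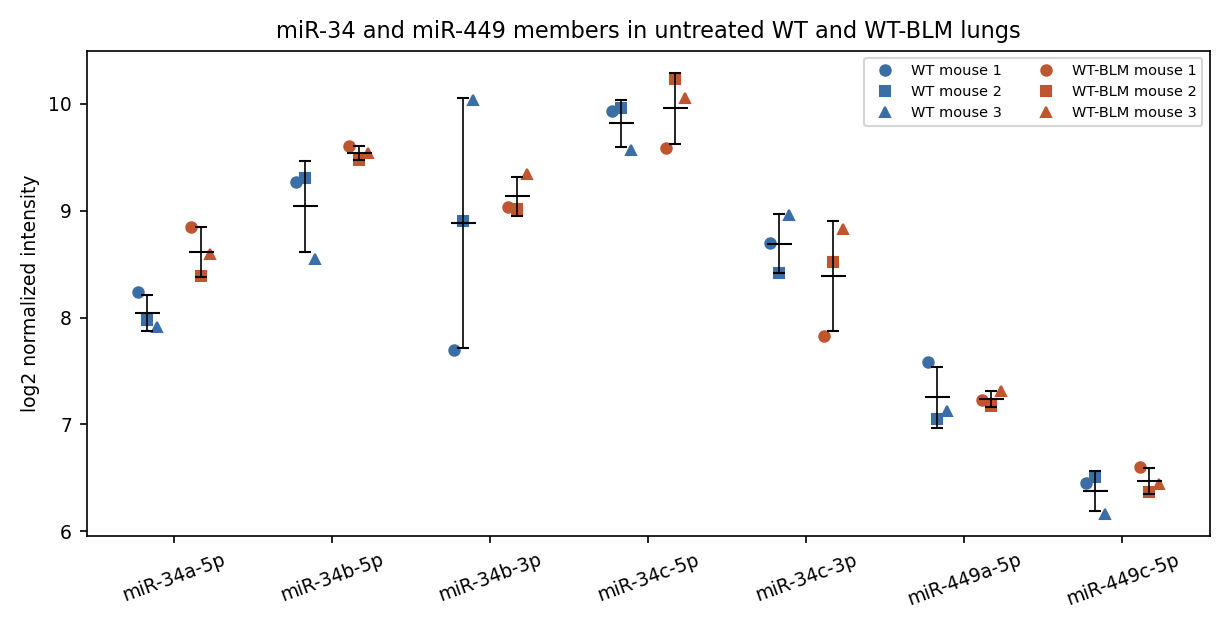
Log2 normalized intensity (vertical axis) of the 7 members in 3 untreated WT (blue) and 3 WT-BLM (orange) lungs, with each mouse as a symbol and the group mean ± SD as a black bar. Only miR-34a-5p and miR-34b-5p show groups without overlap, and levels of different probes cannot be set against each other.

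miR-34b-5p, an arm from the shared miR-34b/c transcript of ciliated cells, was also higher in each WT-BLM lung than in each untreated one. The log2 intensities of untreated WT mice 1, 2 and 3 were 9.27, 9.30 and 8.55, and those of WT-BLM mice 1, 2 and 3 were 9.61, 9.48 and 9.54. The WT-BLM lungs lay close together and above all untreated WT lungs, and untreated WT mouse 3 was the lowest. The log2 fold change was 0.50 (standard error 0.27, 95% interval -0.12 to 1.12), or 1.415-fold, with an unadjusted p of 0.0998 and an adjusted p of 1 in limma. The exact permutation p was 0.10, again the smallest that this design allows. Without untreated WT mouse 3 the log2 fold change came down to 0.27, and with array weights, which count the noisier arrays less, to 0.30.

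Of the 6 members tested, miR-34a-5p and miR-34b-5p thus had groups without overlap, both higher in WT-BLM lungs. Over all 275 tested miRNAs, 11 (4%) were higher without overlap and 2 (0.727%) were lower. Without a filter on dim probes, miR-449c-5p gives a seventh member, and its groups overlapped.

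miR-34c-5p, which shares 21 of 23 bases with miR-34b-5p, showed no such separation. Untreated lungs stood at 9.93, 9.96 and 9.57 in log2 intensity, and WT-BLM lungs at 9.59, 10.23 and 10.06, in the order of mice 1, 2 and 3. WT-BLM mouse 1 lay within the untreated range. The log2 fold change was 0.14 (standard error 0.26, 95% interval -0.46 to 0.74, exact permutation p = 0.50). On the array of WT-BLM mouse 1 the 2 spots of this probe differed, at 1027 and 392 above the empty spots, and with that array left out for this probe the log2 fold change was 0.32.

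The 3p arms of both miRNAs had groups that overlapped. miR-34c-3p read 8.69, 8.41 and 8.96 (log2) without BLM and 7.82, 8.52 and 8.83 with it. The value was low in WT-BLM mouse 1 only, where both spots were dim, at 242 and 115 above the empty spots. The log2 fold change was -0.30 (standard error 0.31, 95% interval -1.03 to 0.44), and without WT-BLM mouse 1 it was -0.015.

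miR-34b-3p had the widest spread of the 7 members within the untreated group. Mice 1, 2 and 3 without BLM had log2 intensities of 7.70, 8.91 and 10.04, whereas those with BLM had 9.03, 9.02 and 9.35. The untreated WT mice thus lay on both sides of all WT-BLM mice, and the log2 fold change came to 0.25 (standard error 0.54, 95% interval -1.01 to 1.51, exact permutation p = 0.70).

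The direction of miR-34b-3p depended on a single spot and on untreated WT mouse 3. On the array of untreated WT mouse 1 its spots read 10.96 and 506 above the empty spots, while on the other 5 arrays all of its spots read between 391 and 676. When the dim spot was left out, a step chosen after the values were seen, untreated WT mouse 1 stood at 9.19 and the log2 fold change turned from 0.25 to -0.25. With all spots kept and untreated WT mouse 3 left out, it was 0.86. In the authors' intensities miR-34b-3p averaged 565 ± 272 (SD, n = 3) without BLM and 456 ± 46.2 with it. The higher untreated mean there came from untreated WT mouse 3 alone, at 879 against at most 509 in the other 5 mice.

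**Figure D2:**
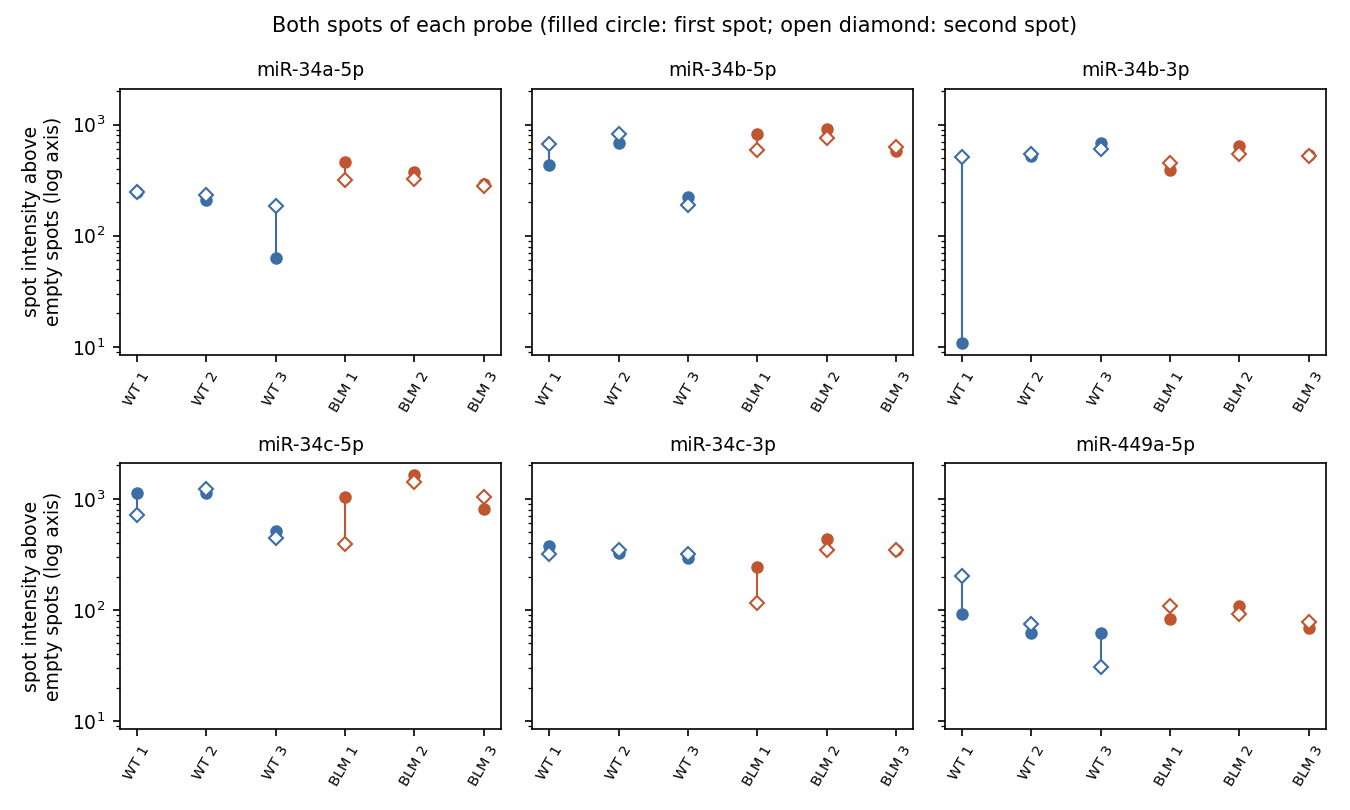
Intensity above the median of the empty spots (vertical axis, log scale) for both spots of the 6 tested probes on each array, in untreated WT (blue) and WT-BLM (orange, named BLM) mice. A line joins the spots of 1 array, and the longest line is that of miR-34b-3p in untreated WT mouse 1, from 10.96 to 506.

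Both arms of a hairpin are cut from the same precursor, so that each pair can be followed within a mouse. For miR-34b, the log2 intensity of the 5p arm minus that of the 3p arm was 1.57, 0.40 and -1.49 in untreated lungs 1, 2 and 3, whereas BLM lungs had 0.58, 0.46 and 0.19. With the dim spot left out, untreated WT mouse 1 came to 0.078, and untreated WT mouse 3 still had the lowest difference of the 6 mice. In that mouse miR-34b-5p read 221 and 188 above the empty spots and miR-34b-3p 676 and 605, which were the lowest pair of the 6 arrays for the 5p arm and, on average, the highest for the 3p arm. The spots of each probe agreed there, and the cause was not tested.

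For miR-34c, the 5p arm minus the 3p arm was 1.24, 1.55 and 0.60 without BLM and 1.76, 1.71 and 1.23 with it. The means were 1.13 ± 0.48 (SD, n = 3) and 1.57 ± 0.29, with overlap between the groups (two-sided p = 0.30 by exact permutation).

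The miR-449 members were dim. miR-449a-5p passed the detection limit on 2 of the 3 arrays in each group. Its log2 values were 7.58, 7.05 and 7.12 without BLM, compared with 7.23, 7.17 and 7.32 after BLM. The WT-BLM lungs lay inside the range of the untreated ones. The log2 fold change was -0.014 (standard error 0.23), with a 95% interval of -0.55 to 0.53, so that changes of either sign as large as that of miR-34b-5p remain inside the interval. The highest value, in untreated WT mouse 1, came from spots at 92.7 and 202, and the brightness within the second spot varied by 50.1% of its intensity.

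miR-449c-5p read between -4.17 and 37.5 above the empty spots on the 6 arrays, below the limit of detection on each. In the authors' intensities it stood at 20, 21 and 5 without BLM, and at 36, 13 and 17 with it. A level below this limit cannot be told from absence. Other arms of the family were also near or below the limit. miR-449a-3p, miR-449b and miR-449c-3p were detected on no array, and miR-34a-3p, the partner arm of miR-34a-5p, in 2 of 3 WT-BLM lungs and in no untreated WT lung. Set against the lowest signal of detected probes on the untreated arrays, miR-34a-3p gave no fold above 1.

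**Figure D3:**
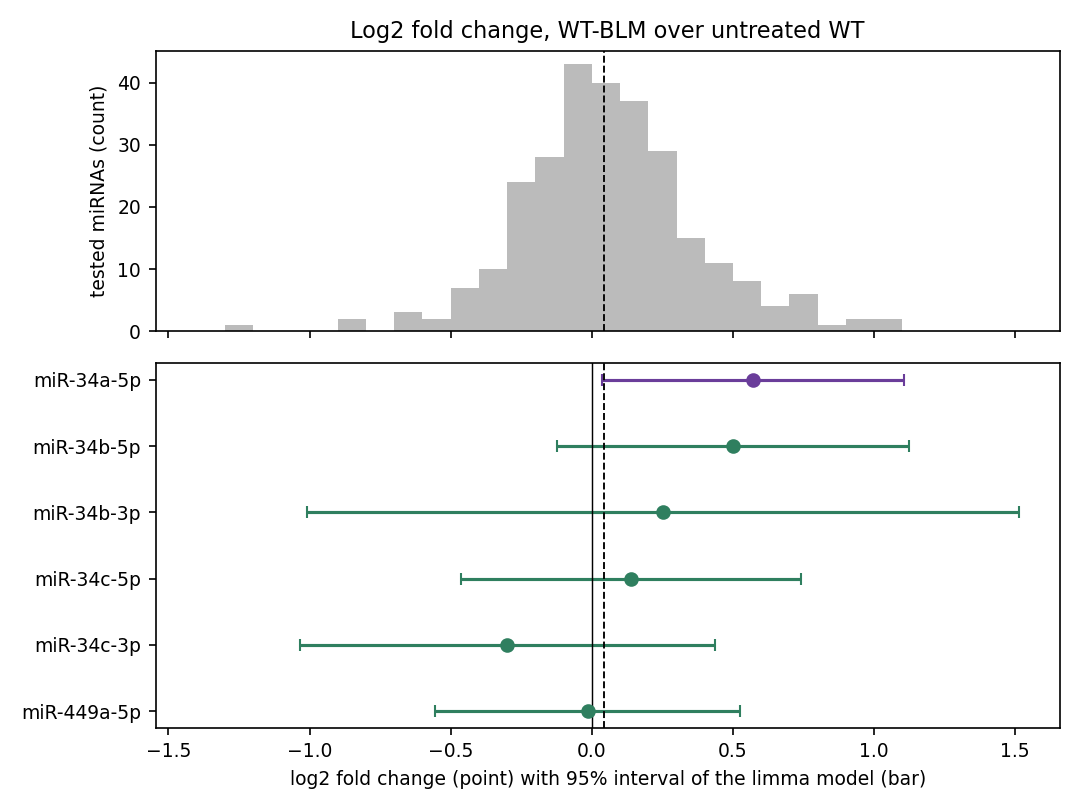
Upper panel: number of tested miRNAs (vertical axis) by log2 fold change of WT-BLM over untreated WT, over all 275. Lower panel: log2 fold change of the 6 tested members with its 95% interval from limma, on the same horizontal axis, where the dashed line is the median of all 275 (0.044). The interval of miR-34a-5p alone lies above 0, and that of each ciliated-cell member includes 0.

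The p53-responsive member was then set against the ciliated-cell members within each mouse. The 5 tested members of ciliated cells had a mean log2 intensity of 8.64, 8.73 and 8.85 in untreated lungs, compared with 8.66, 8.88 and 9.02 in BLM lungs, with a difference between groups of 0.12. Of the 5, 3 had a positive and 2 a negative log2 fold change, with a median of 0.14 against 0.044 over all 275 tested miRNAs. That median ran from 0.011 without untreated WT mouse 3 to 0.30 without WT-BLM mouse 1 when mice were left out in turn. miR-34a-5p minus this mean was -0.40, -0.75 and -0.93 without BLM, and 0.19, -0.50 and -0.42 with it. The difference between groups was 0.45 and the groups overlapped. Across the mice left out in turn it ran from 0.24 without WT-BLM mouse 1 to 0.62 without untreated WT mouse 1. The overlap rested on the dim spot of miR-34b-3p. With that spot left out, untreated WT mouse 1 came to -0.70, the difference was 0.55 and the groups no longer overlapped. On the authors' values with 50 added before taking log2, the difference was 0.51, also without overlap.

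Taken 1 member at a time, in 5 comparisons, the separation depended on the member. Against miR-34b-5p, miR-34a-5p differed between groups by 0.070, with SDs of 0.35 and 0.17 (n = 3 each, exact permutation p = 0.90). This value was 0.25 without untreated WT mouse 3 and -0.11 without untreated WT mouse 2. Against miR-449a-5p the difference was 0.58. Here untreated lungs had 0.65, 0.92 and 0.79 and BLM lungs 1.62, 1.22 and 1.28, without overlap (exact permutation test, two-sided p = 0.10, the smallest possible). miR-449a-5p was under the detection limit in untreated WT mouse 3 and WT-BLM mouse 1, and its own log2 fold change was -0.014, so that this difference largely repeats that of miR-34a-5p. Against miR-34c-3p it was 0.87, also without overlap, and against miR-34c-5p and miR-34b-3p it was 0.43 and 0.32 with overlap (exact permutation p of 0.10, 0.30 and 0.70). With the dim spot left out, the difference against miR-34b-3p was 0.82 without overlap (exact permutation p = 0.10), and on the authors' values with 50 added it was 0.78, again without overlap. Without WT-BLM mouse 1 the difference was 0.47 against miR-34c-3p and 0.12 against miR-34c-5p. Against miR-34b-3p it ran from -0.34 without untreated WT mouse 3 to 1.01 without untreated WT mouse 1. Against miR-34b-5p and miR-34c-5p the groups overlapped on the authors' values too. Since the exact test cannot go below 0.10 here, it can neither call nor dismiss a separation of miR-34a-5p from these members.

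**Figure D4:**
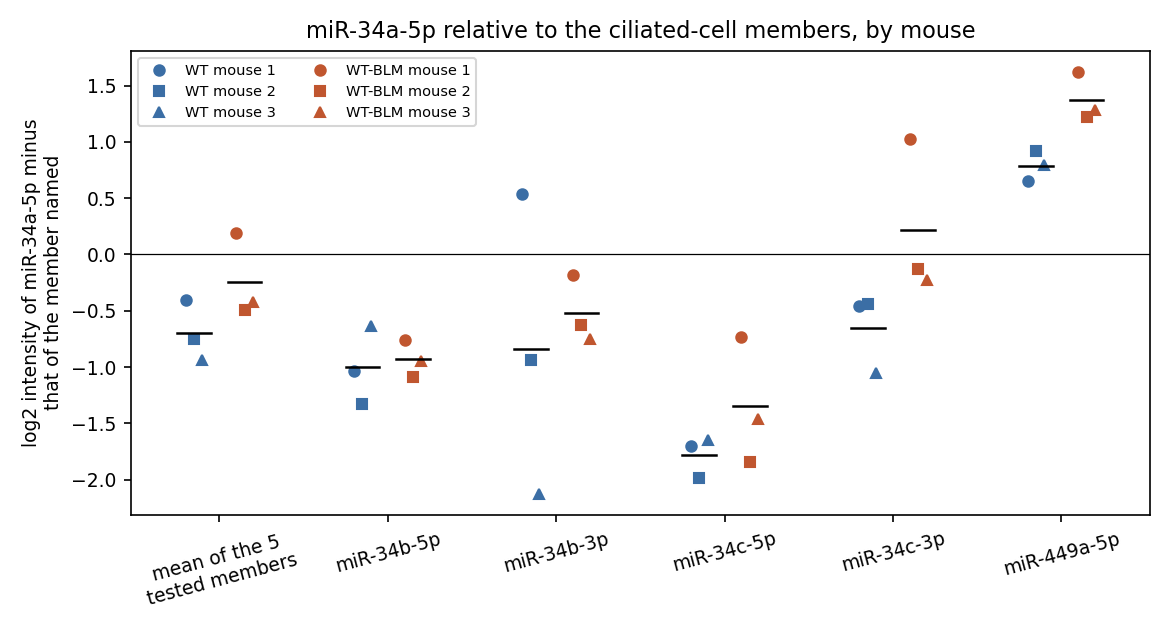
Log2 intensity of miR-34a-5p minus that of the member named (vertical axis), for each untreated WT (blue) and WT-BLM (orange) mouse, with the group mean as a bar. The groups are apart against miR-34c-3p and miR-449a-5p and overlap against the other members and the mean of the 5, but against miR-34b-3p and the mean the overlap ends once the dim miR-34b-3p spot of untreated WT mouse 1, included here, is left out.

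The miRNAs whose profile over the 6 mice was nearest to that of miR-34a-5p were not members of the family. By the root mean square difference of log2 values, each centred on its own mean, the nearest 5 of 274 were miR-199a-5p (0.173), miR-148b-3p (0.190), miR-2137 (0.199), miR-126a-5p (0.213) and miR-98-5p (0.215). Of these, miR-199a-5p, a miRNA of mesenchymal cells, had a log2 fold change of 0.40 (standard error 0.23). Of the 5 mesenchymal miRNAs tested, 1 had a positive and 4 a negative value, among them its partner arm miR-199a-3p at -0.088. miR-126a-5p, a miRNA of endothelial cells, had 0.22 (standard error 0.21). It was dim, being detected in 1 untreated WT and 2 WT-BLM lungs, and the processing shrinks differences of dim probes. Among the family, miR-34b-5p came eighth at 0.225 and miR-449a-5p 43rd at 0.327. The others ranked 95th (miR-34c-5p), 226th (miR-34c-3p) and 257th (miR-34b-3p).

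Other miRNAs tied to p53 were listed to set beside miR-34a-5p. The list held 11 miRNAs that p53 induces or whose processing it promotes, and 10 were tested. Of these 10, 5 had a positive and 5 a negative log2 fold change, with a median of -0.011 (-0.017 to 0.13 with 1 mouse left out, the highest without untreated WT mouse 3), none had an unadjusted p under 0.05, and none had groups without overlap. miR-192-5p and miR-194-5p, which are transcribed together under p53, had log2 fold changes of -0.20 (standard error 0.24) and 0.033 (standard error 0.22). Without untreated WT mouse 3, miR-192-5p had -0.048. The highest values in the list were 0.54 (standard error 0.35) for miR-141-3p, 0.46 (standard error 0.60) for miR-15a-5p and 0.36 (standard error 0.39) for miR-22-3p. With 1 mouse left out, miR-141-3p lay between 0.30 and 0.96, miR-15a-5p between -0.077 and 0.95 and miR-22-3p between 0.079 and 0.74. On the authors' values with 50 added, these 3 had 0.20, 0.48 and 0.26 in the same order. miR-107-3p had 0.25 (standard error 0.24), or 0.048 without untreated WT mouse 2. miR-143-3p, whose processing p53 promotes, had -0.88 (standard error 0.52), and miR-215-5p was detected on no array. The value of miR-143-3p came from WT-BLM mouse 1, at 11.64 against 13.55 and 13.60 in the other WT-BLM mice. Without that mouse it was -0.25, and on the authors' values with 50 added it was -0.24. Of 4 miRNAs that repress p53 or its output, 3 were tested, 1 with a positive and 2 with a negative log2 fold change. miR-125b-5p had -0.0078 (standard error 0.28), which lay between -0.21 and 0.17 with 1 mouse left out. miR-25-3p had 0.19 (standard error 0.43) and miR-30d-5p had -0.42 (standard error 0.33). With 1 mouse left out, these lay between -0.21 and 0.67 and between -0.58 and -0.097.

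Epithelial miRNAs were followed to show what the airway and alveolar lining did in the same lungs. Of 9 listed, 7 were tested, 3 with a positive and 4 with a negative log2 fold change and a median of -0.19, which became 0.11 without untreated WT mouse 2. Groups without overlap were found for 13 of all 275 tested miRNAs, and all 7 epithelial ones had overlapping groups. Their summed linear intensity lay between 5767 and 8368 without BLM and between 6327 and 7639 with it. That of the 6 ciliated-cell members lay between 2498 and 2894 and between 2548 and 3159, with miR-449c-5p under detection. miR-200a-3p, which keeps epithelial cells from taking a mesenchymal state, stood at 12.03, 10.99 and 10.004 without BLM, and at 11.97, 11.34 and 11.60 with it. Untreated WT mouse 3 was the lowest for miR-200a-3p but the highest untreated mouse for miR-200b-3p (11.13, 10.58 and 11.40 without BLM) and for miR-429-3p (9.91, 9.44 and 10.17). On the authors' values miR-200a-3p stood at 3167, 2072 and 3011 without BLM, so that the order of the mice depended on the processing.

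Markers of other cells were summed in the same way. The summed intensity of the endothelial pair, miR-126a-3p and miR-126a-5p, ranged from 7120 to 16600 without BLM and from 16160 to 21750 with it. That of 4 leukocyte miRNAs ranged from 3453 to 4521 and from 3416 to 4811, of 3 erythroid ones from 13300 to 20560 and from 15710 to 20430, and of 5 mesenchymal ones from 27210 to 34800 and from 21720 to 28670. The lowest endothelial sum was that of untreated WT mouse 3. On the authors' values miR-126a-3p, the brighter of the endothelial pair, stood at 19618, 14672 and 6111 without BLM and at 23403, 16455 and 16257 with it. The lowest mesenchymal sum was that of WT-BLM mouse 1, and without miR-143-3p the mesenchymal sums ran from 15360 to 18310 and from 14770 to 18530. For 3 muscle miRNAs the ranges were 1050 to 11010 and 1316 to 1986. By list, the median log2 fold change was 0.49 over 2 endothelial, 0.15 over 4 leukocyte, 0.026 over 3 erythroid, -0.088 over 5 mesenchymal and -0.95 over 2 muscle miRNAs tested, against 0.044 over all 275. None of these miRNAs had an unadjusted p under 0.05 in limma, against 5 of 275 (1.82%) in all. With 1 mouse left out at a time, these medians ran from 0.33 to 0.69 (endothelial), from 0.020 to 0.31 (leukocyte), from -0.16 to 0.15 (erythroid), from -0.25 to -0.014 (mesenchymal) and from -1.80 to -0.13 (muscle, the last without untreated WT mouse 2). In these lists, miR-199a-5p was the only miRNA tested whose groups did not overlap, against 13 of all 275. The part of other cells in the values of miR-34a-5p and miR-34b-5p was not tested.

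The scaling of the arrays shifted the members along with all other miRNAs. With each array scaled to its 75th percentile, the median over all 275 log2 fold changes went from 0.044 to -0.22. miR-34a-5p then had 0.32 (standard error 0.46), and miR-34c-5p changed sign to -0.051. Relative to the median of all miRNAs, miR-34a-5p stood 0.53 higher in the main setting, 0.54 higher without normalization and 0.555 higher under cyclic loess. For miR-34b-5p these values were 0.46, 0.48 and 0.46. Scaling to the 75th percentile shifts each array by a constant, so that relative to the median it gives by construction the values without normalization.

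**Figure D5:**
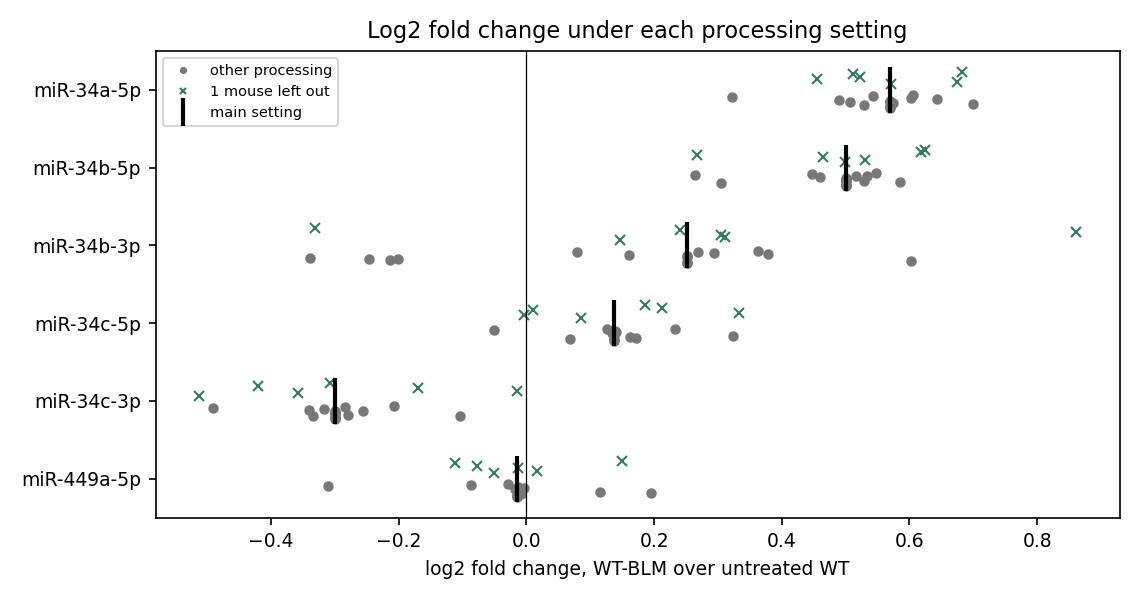
Log2 fold change of WT-BLM over untreated WT (horizontal axis) for each tested member under the main setting (black bar), other processing (grey points) and with 1 mouse left out (green crosses). miR-34a-5p and miR-34b-5p lie above 0 and miR-34c-3p below 0 in every setting run, while miR-34b-3p, miR-34c-5p and miR-449a-5p fall on both sides.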

How the data were processed

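For each of 6 arrays the authors deposited the raw median intensity of every spot with the spread inside it. A second deposited table holds their normalized intensities, linear and rounded, 1 per probe. The normalization method is not given in the sources used here. The raw spots went through limma 3.58.1 in R 4.3.3 as follows: normexp with an offset of 50 on all 5022 spots, quantile normalization of the 3926 miRNA spots on the log2 scale, and the mean of both spots of each probe. The offset shrinks the changes of dim probes. Detection required a mean over both spots more than 3 SD above the median of the 800 empties. Probes that met this on at least 3 arrays entered lmFit and eBayes, p-values were adjusted by Benjamini-Hochberg, and single values were compared by exact two-sided permutation tests. The steps were tested on simulated data with no change or with changes larger than that of any member. Those runs do not show how changes of the members' size would be called. Differences within a mouse were formed on the log2 scale. Groups of 3 arrays limit the precision.

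Named miRNAs were the members, other probes of the family and its seed, fixed lists tied to p53, epithelium and other cells, and the 5 nearest profiles to miR-34a-5p. Members and lists were chosen with earlier results of these data known. Sequences are the array targets, and positions are those of RefSeq on GRCm38.p6; the files name no assembly. miR-34c-5p and miR-449b were not matched to RefSeq.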

Additional observations from a re-analysis of the deposited data

How the results depend on the processing

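Under each planned setting run, limma and the methods' t-test gave 0 miRNAs at an adjusted p under 0.05. The adjusted p of miR-34a-5p ranged from 0.628 to 1, and its unadjusted p was under 0.05 in 14 of 21 alternatives but in only 2 of the 6 that left out 1 mouse. Unadjusted p-values under 0.05 belonged to 5 of 275 miRNAs in the main setting. The count was 8 under cyclic loess, 8 at the 75th percentile and 14 with array weights, each also of 275. Other filters changed how many were tested, with 12 of 570 for a robust SD, 46 of 1963 without a filter and 1 of 116 with detection on all 6 arrays. miR-34a-5p and miR-449a-5p do not pass the last of these filters. With 1 mouse left out, the count under 0.05 lay between 1 and 20: 20 without untreated WT mouse 3, 11 without untreated WT mouse 1, 3 without WT-BLM mouse 1 and 1 without WT-BLM mouse 3. The cause was not tested.

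Mice of the same number shared only that number, with correlations of their deviations of 0.16, 0.028 and 0.073, and not every mouse correlated best with its own number. With the replicate block, limma gave 8 miRNAs and the methods' paired t-test 9. The block moves no fold change here.

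The log2 fold change of miR-34a-5p stayed between 0.32 and 0.70, that of miR-34b-5p between 0.26 and 0.62 and that of miR-34c-3p between -0.51 and -0.015. miR-34b-3p reversed to -0.34 with discordant spot pairs left out, to -0.20 and -0.21 on the authors' values with 50 or 1 added, and to -0.25 with its dim spot left out, and lay between -0.33 and 0.86 with 1 mouse left out. miR-34c-5p reversed to -0.051 at the 75th percentile and lay between -0.0044 and 0.33 with 1 mouse left out. miR-449a-5p reversed to 0.12 and 0.20 on the authors' values, was -0.31 at the 75th percentile, and lay between -0.11 and 0.15 with 1 mouse left out. miR-34a-5p minus the ciliated-cell members stayed between 0.24 and 0.62. A block by slide or scan was not run, as the files give neither.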
